A study of Mus musculus with 22 samples.

Results

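The tumour suppressor p53 is a transcription factor that is kept scarce in unstressed cells because the ubiquitin ligase encoded by Mdm2 marks it for degradation. When DNA is damaged or growth conditions are poor, the protein accumulates, binds paired decamer elements in DNA and raises transcription of genes that halt the cell cycle, promote cell death, retune metabolism and limit p53 itself. Embryonic stem cells are known to carry abundant p53 and to activate some of its targets as they leave pluripotency. The widely used targets followed here were chosen by gene symbol: Cdkn1a, Ccng1, Bax, Bbc3, Pmaip1, Phlda3, Trp53inp1, Sesn2, Zmat3 and Mdm2. These are 10 of the 55141 gene rows in the tables, and all 10 passed the low-count filter in every comparison.

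The 22 polyA RNA libraries came from mouse embryonic stem (mES) cells and cultures grown from them, either wild type or Hox-/-, a genotype that the series title describes as without any Hox function. The mES cells of both genotypes (2 libraries each) were grown in serum with 100 ng per ml of LIF, 3 µM of CHIR99021 (which inhibits GSK-3) and 1 µM of PD0325901 (which inhibits MEK). Endoderm cultures of both genotypes (3 libraries each) were plated flat, received 100 ng per ml of Activin A with 3 µM of CHIR99021 at 24 h and again at 72 h, and were collected at 120 h. Activin A gastruloids, which are free-floating aggregates of stem cells that model aspects of the early embryo, were collected at 96 h and 120 h from wild-type and Hox-/- cells (2 libraries in each of 4 groups). Chiron gastruloids at 96 h and 120 h were wild type only (2 libraries each), and the labels give no dose for either kind of gastruloid. Gastruloids and endoderm cultures are labelled as mixed cells, so in these bulk samples fewer cells of a type and less RNA per cell cannot be told apart. The labels do not say how many Hox-/- lines were used or whether replicates were separate cultures, so p-values measure the spread between these libraries, which may be technical.

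Total counts ran from 9.11 M to 28.8 M per library, and the 96 h gastruloid libraries were all deeper than the 120 h ones. The summed level of the 39 Hox genes in the Hox-/- libraries was 2.71% of the wild-type level in mES cells, 3.01% in endoderm cultures, 16.0% in Activin A gastruloids at 96 h and 5.65% at 120 h. The replicates of the Chiron group at 96 h differed most (chi-square divided by its degrees of freedom, 10.3 over genes), against 1.37 to 6.30 in every other pair of replicates. The 10 genes of the endoderm marker list summed to 1141 CPM (counts-per-million, a count scaled to the library total) in wild-type endoderm cultures. The Hox-/- endoderm cultures had a sum of 725 CPM, and no gene of the list was at the counting floor in either genotype. Undifferentiated mES cells already had sums of 628 CPM (wild type) and 653 CPM (Hox-/-), with 4 and 5 of these genes at the floor. The sum is therefore not a measure of endoderm alone.

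Promoters of the targets are shown first, because p53 is known to act through decamer elements in DNA near its targets; the part of these sequences in the values that follow was not tested. RefSeq promoter windows (GRCm38.p6, from 250 bases before to 50 after the start site) were matched for 7 of the 10 genes, in 10 windows. The p53 decamer, 1 arm of the paired element, searched on both strands under its textbook consensus, was found in 4 windows, against 8.36% of all 32817 windows. The stretches below run 5′ to 3′ on the gene's strand, with decamers in capitals. They lie at chr17:29090881-29090962 on the plus strand for Cdkn1a, and on the minus strand at chr10:117710910-117710969 for Mdm2, chr11:40755437-40755496 for Ccng1 and chr7:45467065-45467124 for Bax.
Cdkn1a: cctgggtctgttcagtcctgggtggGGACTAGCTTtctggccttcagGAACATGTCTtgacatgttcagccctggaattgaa
Mdm2: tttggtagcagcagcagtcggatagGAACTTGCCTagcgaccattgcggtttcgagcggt
Ccng1: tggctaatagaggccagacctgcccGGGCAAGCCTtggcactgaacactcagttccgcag
Bax: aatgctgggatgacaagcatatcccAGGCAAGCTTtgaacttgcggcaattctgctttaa
The Cdkn1a stretch comes from the more upstream of 2 windows matched for this gene. It holds 2 exact matches to the decamer that start 73 and 51 bases before the start site of that window, separated by 12 bases. The letters tgacatgttc, which directly follow the second match, depart from the consensus only at their first base. The search counted exact matches only, so it left them in lower case. Which of these letters p53 binds was not tested. A pair of decamers at most 13 bases apart, the spacing allowed for a full element, occurred in 24 of all windows (0.0731%). The single decamers start 186 bases before the start site in Mdm2, 185 in Ccng1 and 201 in Bax. None was found in the windows of Bbc3, Phlda3 and Sesn2 or in the more downstream window of Cdkn1a, at chr17:29093519-29093818. This says only that these letters are not in those windows.

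Per length of transcript, the wild-type mES cells held far more Bax and Ccng1 message than Pmaip1 message. Bax, the executioner that permeabilises mitochondria, stood at 279.8 FPKM there and Ccng1, cyclin G1, at 117 FPKM. Cdkn1a, the cyclin-dependent kinase inhibitor p21, stood at 86.8 FPKM. The 2 BH3-only killers were the lowest of the 10, Bbc3 (Puma) at 12.1 FPKM and Pmaip1 (Noxa) at 4.08 FPKM. In Hox-/- endoderm cultures the order changed, with Cdkn1a at 325 FPKM ahead of Bax at 175 FPKM.

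Across the 10 groups the targets did not share a single profile. The highest group mean in CPM exceeded the lowest 6.93 times for Cdkn1a, 6.36 times for Pmaip1 and 4.75 times for Trp53inp1, but only 1.69 times for Bax. Cdkn1a was highest in Hox-/- endoderm cultures at 625 ± 40.5 CPM (SD, n = 3) and second in Hox-/- Activin A gastruloids at 96 h. Its next groups, wild-type endoderm cultures and wild-type Activin A gastruloids at 96 h, overlapped each other, as did the 4 groups between 164 and 147 CPM in neighbouring pairs. Mdm2 and Sesn2, a stress-induced regulator of mTORC1 signalling, were highest in wild-type mES cells, at 169.6 ± 2.75 and 184.5 ± 3.49 CPM (n = 2). Among group means, Trp53inp1 followed Sesn2 most closely (Pearson r = 0.98 on the log2 scale), and Ccng1 followed Phlda3 (r = 0.85). Cdkn1a and Mdm2, the pair most often read together as a p53 readout, were uncorrelated (r = -0.07). These correlations run over 10 group means that share depth and scaling, and carry no test. Of 13262 genes with at least 5 CPM in some group, Mapk9 and Irf1 had the profiles nearest to that of Cdkn1a (r = 0.956 and 0.955), and Arf3, Arpc2 and Dner the nearest to the mean profile of the 10 targets (r = 0.973, 0.968 and 0.962).

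**Figure D1:**
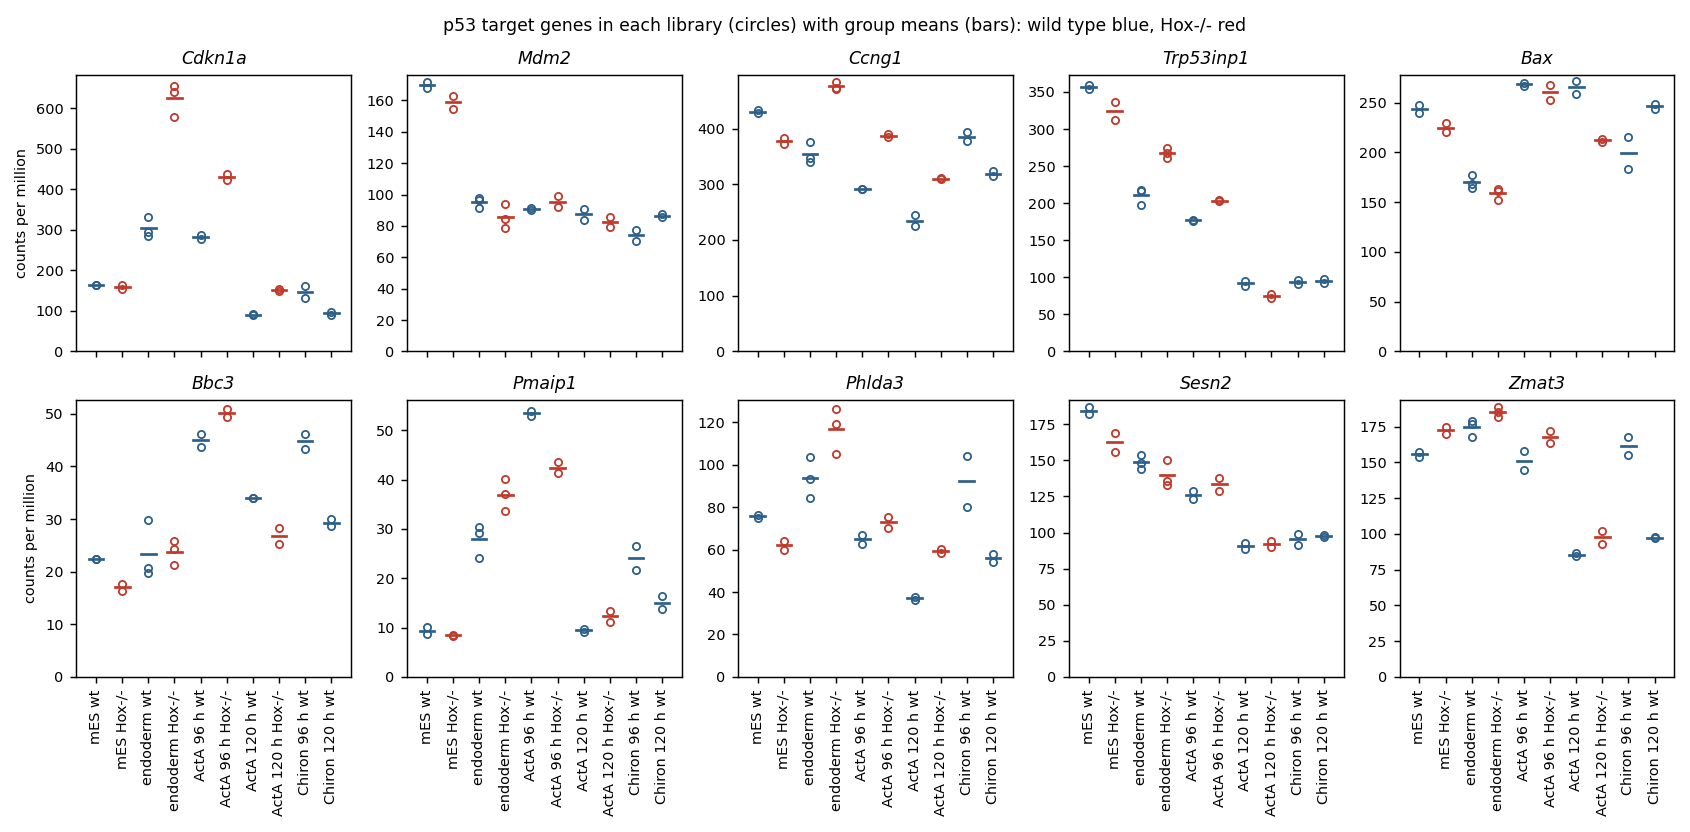
Counts-per-million (CPM, y axis, linear, from 0) of the 10 targets in each of the 22 libraries, with 1 panel per gene and 1 column per group; circles are libraries, bars are group means, blue is wild type and red is Hox-/-. Cdkn1a peaks in Hox-/- endoderm cultures at 625 CPM, whereas Trp53inp1, Sesn2 and Mdm2 peak in wild-type mES cells.

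In undifferentiated mES cells, more of the targets were called lower than higher in the Hox-/- genotype. Of the 10 targets, 1 was called higher and 5 were called lower in Hox-/- cells by edgeR's quasi-likelihood test (Benjamini-Hochberg adjusted p under 0.05 over all genes, the rule used throughout), against 12.4% and 10.8% of all genes. Their median log2 fold change (Hox-/- minus wild type) was -0.16, and that of all genes 0. Cdkn1a was at 164 and 164 CPM in the wild-type libraries and 165 and 153 CPM in the Hox-/- ones, so the groups overlapped (log2 fold change -0.05, SE 0.051, adjusted p = 0.564). The largest fall was in Bbc3, a BH3-only activator of apoptosis, from 22.4 and 22.4 CPM to 17.7 and 16.4 CPM (log2 fold change -0.39, SE 0.101, adjusted p = 0.004). Phlda3, which competes with Akt for membrane lipids, had 75.1 and 76.5 CPM in wild-type cells against 64.2 and 60.0 CPM in Hox-/- cells (-0.29, SE 0.063, adjusted p = 0.000793). Ccng1 (-0.19), Sesn2 (-0.19) and Trp53inp1 (-0.14) were called lower as well, and Zmat3, a zinc finger protein that binds RNA, was called higher by 0.14. These are small differences, and their number depended on the test: DESeq2 called 2 of the 10 and limma on log2(FPKM + 1) called 0, with 6 at an unadjusted p under 0.05. Without the first wild-type library 3 were called, all lower.

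Hox-/- endoderm cultures held about 2 times as much Cdkn1a message as wild-type ones. The wild-type libraries had 294.5, 285 and 332 CPM and the Hox-/- libraries 656, 579 and 641 CPM, so every Hox-/- library lay above every wild-type one (log2 fold change 1.05, SE 0.067, fold 2.07, adjusted p = 1.84e-08). Ccng1 rose from 376, 346 and 340.3 CPM to 473, 472 and 484 CPM (0.44, SE 0.049, adjusted p = 6.6e-06). Trp53inp1, a nuclear stress protein that also promotes autophagy, had 216, 218 and 198 CPM in wild type and 274, 267 and 261 CPM in the mutant cultures (0.35, SE 0.049, adjusted p = 4.68e-05). Pmaip1, which neutralises the survival protein MCL1, had 29.1, 30.5 and 24.1 CPM against 33.7, 37.0 and 40.1 CPM (0.41, SE 0.09, adjusted p = 0.00191). Phlda3 rose by 0.33 (SE 0.079, adjusted p = 0.00376), with wild-type libraries between 84.3 and 103.5 CPM and Hox-/- libraries between 105 and 126 CPM. In all, 5 of the 10 targets were called higher, against 23.1% of all genes, and none lower, against 23.1% again; 1 target, Mdm2, was lower at an unadjusted p under 0.05, and DESeq2 called none lower.

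The other 5 targets were not called in endoderm cultures, and they include the feedback regulator and both remaining death genes. Mdm2 had 98.0, 96.3 and 91.3 CPM in wild type against 84.2, 94.0 and 78.4 CPM in Hox-/- (log2 fold change -0.15, SE 0.062, adjusted p = 0.0705). Bax (-0.09, SE 0.051), Bbc3 (0.03, SE 0.132), Sesn2 (-0.08, SE 0.057) and Zmat3 (0.09, SE 0.047) showed small differences. For Bax and Zmat3 the libraries of the genotypes did not overlap. The difference between cultures was tested directly as an interaction, the genotype effect in endoderm cultures minus that in mES cells. It was called positive for 5 targets, against 11.6% of all genes, and negative for none, against 12.5% (0 were negative at an unadjusted p under 0.05, and DESeq2 called 0). Those 5 were Cdkn1a (1.12, SE 0.096, adjusted p = 5.55e-08), Ccng1 (0.65), Phlda3 (0.64), Pmaip1 (0.61) and Trp53inp1 (0.51). The Pmaip1 call was lost without the first wild-type mES library or either Hox-/- mES library. In the same cultures the pluripotency markers summed to 899 CPM in wild type against 253 CPM in Hox-/-, and visceral endoderm and liver markers to 129 and 26.7 CPM. The part of these cell-state differences in the p53 target results was not tested.

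**Figure D2:**
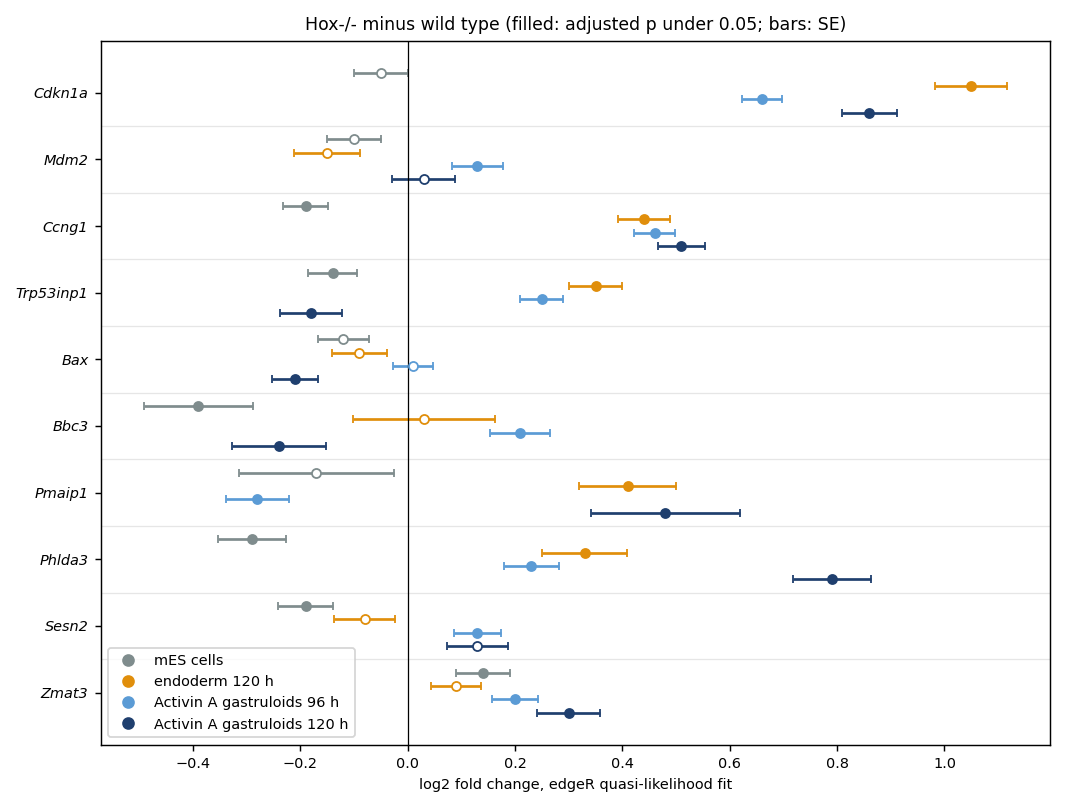
Log2 fold change, Hox-/- minus wild type (x axis), of each target (rows) in mES cells, endoderm cultures and Activin A gastruloids at 96 h and 120 h; bars are the standard error and filled points have an adjusted p under 0.05. Cdkn1a, Ccng1 and Phlda3 are higher in the 3 differentiated cultures (Cdkn1a by 1.05, 0.66 and 0.86) and are not higher in mES cells.

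In Activin A gastruloids at 96 h most targets were higher in Hox-/- than in wild type. Of the 10, 8 were called higher, against 22.2% of all genes, and 1 lower, against 16.7%, with a median log2 fold change of 0.21 beside 0.03 for all genes. Cdkn1a had 287 and 278 CPM in wild-type gastruloids and 424 and 438 CPM in Hox-/- ones (0.66, SE 0.037, adjusted p = 5.08e-21). Ccng1 had 291 and 291 CPM against 384 and 390 CPM (0.46, SE 0.038, adjusted p = 1.51e-14). Trp53inp1 (0.25), Phlda3 (0.23), Bbc3 (0.21) and Zmat3 (0.20) were higher by smaller amounts. The calls of Mdm2 (0.13, adjusted p = 0.023) and Sesn2 (0.13, adjusted p = 0.0129, with overlapping libraries) were the weakest and were lost under 11 and 10 of 14 alternative settings. Pmaip1 went the other way, from 53.9 and 52.9 CPM in wild type to 41.3 and 43.5 CPM in Hox-/- (-0.28, SE 0.058, adjusted p = 7.49e-05). Bax was not called (0.01, SE 0.038). DESeq2 called 5 of the 10, all higher, and limma on log2(FPKM + 1) called 2 higher and 1 lower.

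At 120 h the targets split. Of the 10, 5 were called higher in Hox-/-, against 24.9% of all genes, and 3 lower, against 25.5%. Cdkn1a had 89.0 and 91.5 CPM in wild type against 150.4 and 154 CPM in Hox-/- (0.86, SE 0.051, fold 1.82, adjusted p = 4.9e-20). Phlda3 had 36.3 and 37.9 CPM against 58.4 and 60.4 CPM (0.79, SE 0.073, adjusted p = 4.24e-13), its largest genotype difference. Ccng1 (0.51), Pmaip1 (0.48) and Zmat3 (0.30) were also higher. Bax fell from 259 and 272 CPM to 214 and 211 CPM (-0.21, SE 0.043, adjusted p = 5.17e-05), Bbc3 from 34.0 and 33.9 CPM to 25.3 and 28.2 CPM (-0.24, SE 0.087, adjusted p = 0.0195) and Trp53inp1 from 95.5 and 88.2 CPM to 77.4 and 72.7 CPM (-0.18, SE 0.058, adjusted p = 0.00794). Mdm2 (0.03, SE 0.059) and Sesn2 (0.13, SE 0.057) were not called. Scaling by total counts alone shifts the median of all genes in this comparison to -0.13, so fold changes from the trimmed-mean scaling used here stand above the plain ratios of CPM, and 0 calls among the 10 changed sign. DESeq2 called 5 higher and only Bax lower. The calls of Trp53inp1 and Bbc3 were lost under 3 and 5 of 14 alternative settings, both of them without the first wild-type library. Without the second Hox-/- library Trp53inp1 and Pmaip1 lost theirs, and Bbc3 lost its call without the second wild-type or the first Hox-/- library.

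Cdkn1a, Ccng1 and Phlda3 were called higher in all 3 differentiated Hox-/- cultures, and for Phlda3 limma on FPKM ended the call in endoderm cultures and at 96 h. Of the death genes over the 4 genotype comparisons, Pmaip1 was called higher in 2 and lower in 1, Bbc3 higher in 1 and lower in 2, and Bax lower in 1 and not called in 3. These 4 comparisons share no library. Whether the genotype effect changed with time was tested as the effect at 120 h minus that at 96 h. It was called positive for 3 targets, against 18.7% of all genes, namely Pmaip1 (0.76, SE 0.15, adjusted p = 5.04e-05), Phlda3 (0.56, SE 0.09, adjusted p = 1.35e-06) and Cdkn1a (0.20, SE 0.063, adjusted p = 0.00854). It was called negative for 3, against 20.2%, namely Bbc3 (-0.45), Trp53inp1 (-0.43) and Bax (-0.22). With scaling by total counts alone the Cdkn1a difference was not called (adjusted p = 0.0659), and limma without a filter ended the calls of Bbc3 and Bax. Endoderm markers summed to 1285 CPM in wild-type gastruloids and 603.5 CPM in Hox-/- ones at 96 h and to 1050 and 95.1 CPM at 120 h, and caudal and presomitic mesoderm markers were higher in Hox-/- at both times (2368 and 3278 CPM, then 781 and 1112 CPM). Their part in the target results was not tested.

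All 10 targets fell between 96 h and 120 h in wild-type Activin A gastruloids and again in Hox-/- ones. The share of all genes called lower was 37.8% in wild type and 37.6% in Hox-/-, and the shares called higher were 37.2% and 34.9%. The median log2 change (120 h minus 96 h) of the targets was -0.71 in wild type and -0.67 in Hox-/-, beside 0 and -0.01 for all genes. Pmaip1 dropped furthest in wild type, from 53.9 and 52.9 CPM to 9.19 and 9.77 CPM (-2.57, SE 0.095, adjusted p = 6.19e-29), and in Hox-/- it went from 41.3 and 43.5 CPM to 11.1 and 13.4 CPM (-1.81, SE 0.09). Cdkn1a went from 287 and 278 CPM to 89.0 and 91.5 CPM in wild type (-1.72, SE 0.046, adjusted p = 9.44e-35) and by -1.52 (SE 0.041) in Hox-/-. Trp53inp1 changed by -1.02 and -1.45, Zmat3 by -0.90 and -0.79, Phlda3 by -0.88 and -0.32, and Sesn2 by -0.55 in both. The smallest changes were those of Mdm2 (-0.13 and -0.23) and Bax (-0.09 and -0.31), and in wild type the 96 h and 120 h libraries of each overlapped in CPM. Both of these wild-type calls were lost under 7 of 14 alternative settings, among them scaling by total counts alone, which left 8 of the 10 called. Libraries at 96 h were deeper (14.95 M to 28.8 M counts) than those at 120 h (9.11 M to 11.9 M), and the labels name no batch, so the collection time and any difference in handling cannot be told apart.

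Wild-type Chiron gastruloids showed a partial version of this decline. With time 6 targets fell, against 33.2% of all genes, and 1 rose, against 28.5% (2 rose with scaling by total counts alone). Zmat3 had 155 and 168 CPM at 96 h and 96.8 and 97.9 CPM at 120 h (-0.84, SE 0.058, adjusted p = 1.33e-11), close to its change in Activin A gastruloids. Phlda3 (-0.83), Pmaip1 (-0.78), Cdkn1a (-0.76), Bbc3 (-0.72) and Ccng1 (-0.38) fell too. Bax rose from 184 and 215 CPM to 244 and 249 CPM (0.20, SE 0.058, adjusted p = 0.00542). Mdm2 (0.12), Trp53inp1 (-0.09) and Sesn2 (-0.07) were not called.

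The treatments themselves were compared in wild-type gastruloids, with the same Activin A libraries as above, so these values are not independent of the genotype and time results. At 96 h, 6 targets were higher in Activin A than in Chiron gastruloids, against 31.3% of all genes, and 3 were lower, against 30.2%. Pmaip1 had 53.9 and 52.9 CPM against 21.7 and 26.5 CPM in Chiron gastruloids (1.07, SE 0.08, adjusted p = 4.49e-11). Trp53inp1 had 177.5 and 177 CPM against 91.4 and 96.2 CPM (0.85, SE 0.052, adjusted p = 9.3e-13), and Cdkn1a 287 and 278 CPM against 132 and 163 CPM (0.87, SE 0.065, adjusted p = 3.73e-11). Bax (0.36), Sesn2 (0.34) and Mdm2 (0.24) were higher by less. Phlda3 (-0.58), Ccng1 (-0.47) and Zmat3 (-0.16) were lower in Activin A gastruloids, and the Zmat3 libraries overlapped. The Zmat3 call was lost under 8 of 14 alternative settings, among them DESeq2, scaling by total counts alone, and the fits without the second Activin A or the second Chiron library. Pou5f1, a core pluripotency factor, stood at 824 CPM in Activin A and 103 CPM in Chiron gastruloids at this time. The pluripotency markers went both ways, and of the others only Nanog was also higher in Activin A gastruloids (2.23). Zfp42 (-1.1), Esrrb (-1.03), Tfcp2l1 (-0.8) and Sox2 (-0.66) were lower, and Dppa5a and Klf4 were not called. The part of these markers in the target differences was not tested.

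By 120 h none of the 10 was called higher in Activin A gastruloids, against 20.3% of all genes (0 at an unadjusted p under 0.05, and 0 by DESeq2), and 4 were lower, against 21.6%. These were Pmaip1 (-0.73, SE 0.151), Phlda3 (-0.64, SE 0.107), Ccng1 (-0.50, SE 0.051) and Zmat3 (-0.24, SE 0.065), the last not called without the first Activin A library. Cdkn1a was at 89.0 and 91.5 CPM in Activin A and 89.7 and 98.2 CPM in Chiron gastruloids, with overlapping libraries (-0.11, SE 0.081, adjusted p = 0.317). The treatment effect at 120 h minus that at 96 h was called negative for 6 targets, against 18.0% of all genes, and positive for none, against 21.7% (0 at an unadjusted p under 0.05, and 0 by DESeq2). The most negative were Pmaip1 (-1.80, SE 0.17, adjusted p = 9.5e-09), Cdkn1a (-0.98, SE 0.104, adjusted p = 6.61e-08) and Trp53inp1 (-0.95, SE 0.081, adjusted p = 1.95e-09). For Ccng1 and Phlda3, lower in Activin A gastruloids at both times, the interaction was not called (-0.03, SE 0.069, and -0.06, SE 0.134).

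**Figure D3:**
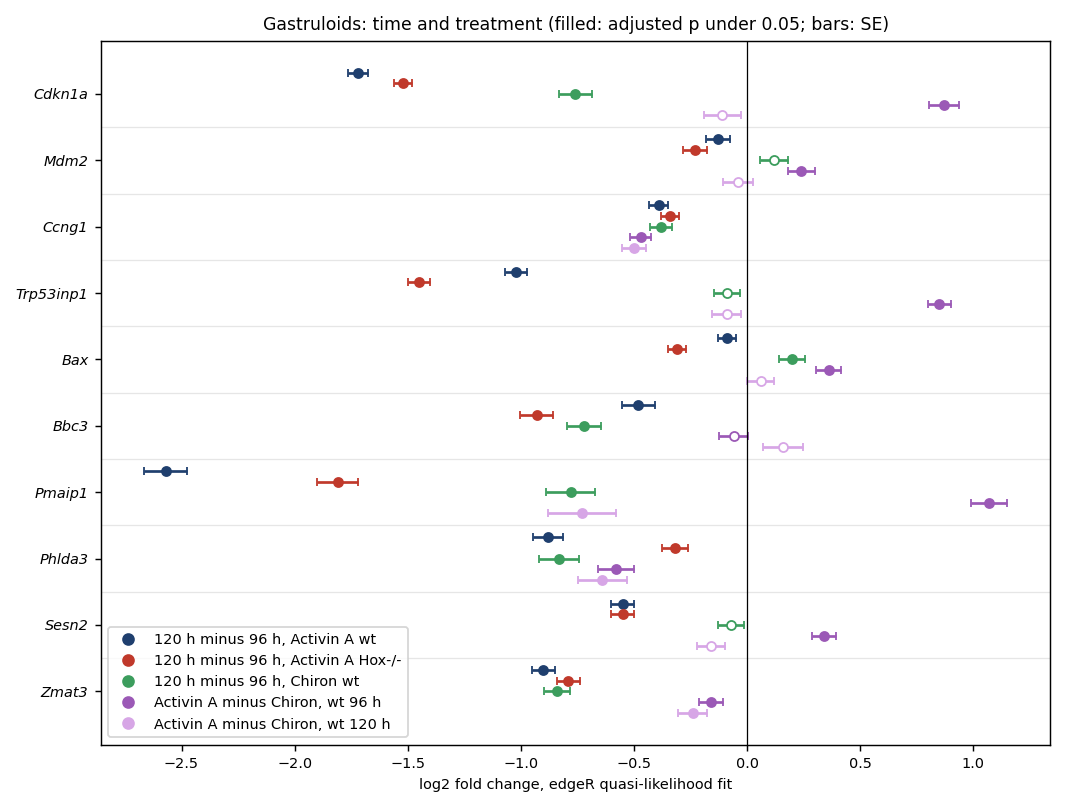
Log2 fold change (x axis) of each target (rows) from 96 h to 120 h in 3 kinds of gastruloid and between Activin A and Chiron wild-type gastruloids at each time; bars are the standard error and filled points have an adjusted p under 0.05. Pmaip1, Cdkn1a and Trp53inp1 combine the largest falls with time in Activin A gastruloids (-2.57, -1.72 and -1.02 in wild type) with the largest excess over Chiron gastruloids at 96 h.

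Differentiation of mES cells into endoderm cultures moved the targets in opposite directions. In wild type 3 were higher in endoderm cultures, against 41.6% of all genes, and 5 lower, against 38.3%. In Hox-/- cells 5 were higher, against 42.7%, and 4 lower, against 37.9%. Pmaip1 rose most in both genotypes, from 10.2 and 8.63 CPM to 29.1, 30.5 and 24.1 CPM in wild type (1.45, SE 0.123, adjusted p = 1.27e-09) and by 2.05 (SE 0.124) in Hox-/-. Cdkn1a rose by 0.77 (SE 0.069) in wild type and by 1.89 (SE 0.071) in Hox-/-. Mdm2 fell from 168 and 171.5 CPM to 98.0, 96.3 and 91.3 CPM in wild type (-0.95, SE 0.061, adjusted p = 1.28e-11) and by -0.97 (SE 0.061) in Hox-/-. Bax changed by -0.63 and -0.58, Trp53inp1 by -0.88 and -0.36 and Sesn2 by -0.43 and -0.30. Ccng1 was called lower in wild type (-0.40) and higher in Hox-/- (0.25). Zmat3 was called in neither (0.05 and 0.02). The 2 tables were normalised together for this comparison, and scaling by total counts alone raised the median of all genes to 0.18 from 0.07 in wild type and from 0.10 in Hox-/-, and the call of Phlda3 in wild type (0.19, SE 0.083, adjusted p = 0.0438) was lost under 7 of 12 alternative settings.

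The message of p53 itself was not called different between the genotypes in mES cells or endoderm cultures. Trp53 stood at 535 to 540 CPM in mES cells of both genotypes and 313 to 326 CPM in endoderm cultures, with genotype differences of -0.01 (SE 0.042) and -0.05 (SE 0.053). It was higher in Hox-/- Activin A gastruloids by 0.14 at 96 h (SE 0.037, adjusted p = 0.00254) and by 0.30 at 120 h (SE 0.042, adjusted p = 1.99e-08). Mdm4, which represses p53 as a partner of Mdm2, was called in Hox-/- against wild type only at 96 h (0.15, SE 0.043). Cdkn2a, whose locus encodes the Mdm2 antagonist Arf beside the kinase inhibitor p16, was higher in Hox-/- mES cells (0.54, SE 0.135) and endoderm cultures (42.1 and 72.4 CPM in wild type and Hox-/-; 0.79, SE 0.09) and lower in Hox-/- gastruloids at 96 h (-0.24, SE 0.09) and 120 h (-0.92, SE 0.129). With time in gastruloids, Trp53 fell in wild-type Activin A (-0.30), Hox-/- Activin A (-0.13) and Chiron (-0.32) cultures, while Mdm4 rose (0.50, 0.31 and 0.42).

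Another 30 p53 targets outside the 10 were counted the same way. In mES cells 3 of the 29 tested were higher in Hox-/-, against 12.4% of all genes, and 10 lower, against 10.8%, among them Perp (-1.25), a desmosomal protein, and Btg2 (-0.55), an antiproliferative factor. In endoderm cultures 15 of 30 were higher and 4 lower, against 23.1% of all genes in each direction, with a median of 0.19. In Activin A gastruloids at 96 h 11 of 28 were higher, against 22.2%, and 2 lower, against 16.7%. At 120 h 10 of 28 were higher, against 24.9%, and 7 lower, against 25.5%, so the share called lower was that of all genes, and the median was -0.01 beside -0.02 for all genes. Btg2 was higher in Hox-/- by 1.38 at that time, and Rprm, a p53-induced cell-cycle arrest gene, differed by -2.22. Among other kinase inhibitors, Cdkn1c (p57), which is not in the set of 10, was lower in Hox-/- endoderm cultures (-1.87, SE 0.122) and in Hox-/- gastruloids at 96 h (-3.46, SE 0.078) and 120 h (-2.60, SE 0.079), where Cdkn1a was higher. Cdkn2b (p15) was higher in Hox-/- endoderm cultures (1.98, SE 0.093). Of 12 proliferation genes, 1 was called in Hox-/- mES cells, higher, and in endoderm cultures, where Cdkn1a differed most, 1 was higher and 2 were lower, none of these shares being above that of all genes. In Hox-/- gastruloids 4 of the 12 were higher and 2 lower at 96 h, against 22.2% and 16.7% of all genes, and at 120 h 10 were higher, against 24.9%, with the other 2 not called.

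**Figure D4:**
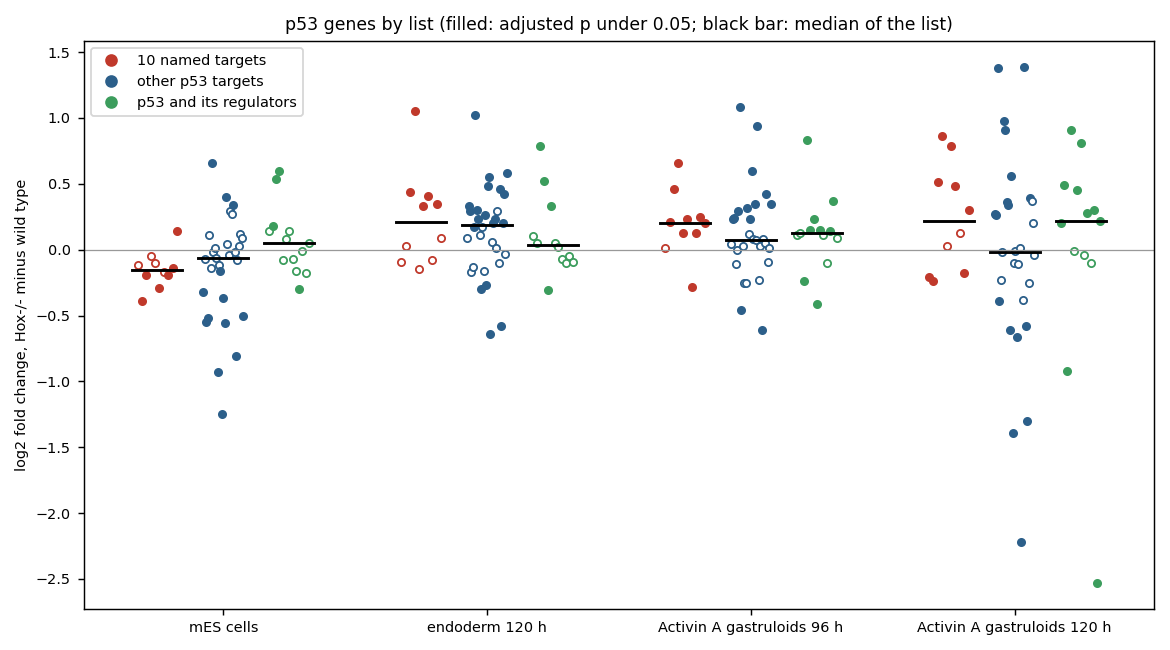
Log2 fold change, Hox-/- minus wild type (y axis), of the 10 targets (red), the other p53 targets (blue) and p53 with its regulators (green) in 4 cultures; each point is a gene, filled where the adjusted p is under 0.05, and black bars are list medians. In mES cells the median of the 10 targets is -0.16, and in the 3 other cultures it is 0.21, 0.21 and 0.22.

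Of 38 genes of these wider lists tested in all 4 cultures, 2 had neighbours within 1 Mb whose median was above 0.3 in every culture, namely Chek1, which encodes the DNA-damage checkpoint kinase CHK1, and Ei24, a p53-induced membrane protein of the endoplasmic reticulum. Chek1 (chr9:36708482-36726658) and Ei24 (chr9:36779159-36797393) lie 52.5 kb apart in mm10. Chek1 was higher in Hox-/- by 0.60, 0.52, 0.83 and 0.91 in mES cells, endoderm cultures and gastruloids at 96 h and 120 h, and Ei24 by 0.66, 1.02, 1.08 and 0.98. The median log2 fold change of the other genes tested within 1 Mb of Chek1 was 0.60, 0.62, 0.54 and 0.51 in the same order, and 10 of 13, 10 of 15, 10 of 18 and 8 of 18 were called higher, against 12.4%, 23.1%, 22.2% and 24.9% of all genes. At 96 h 1 of the 18 was called lower, and at 120 h 2 were. From 4 to 6 Mb beyond the pair the median was 0.07, 0.05, -0.12 and -0.22. The copy number of this region was not measured, and its part in the higher level of Chek1 and Ei24 was not tested. For the 10 targets, the median of neighbours within 1 Mb stayed between -0.12 and 0.21 in all 4 cultures, and the neighbours of Cdkn1a had medians of 0.09, 0.05, 0.00 and 0.02.

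**Figure D5:**
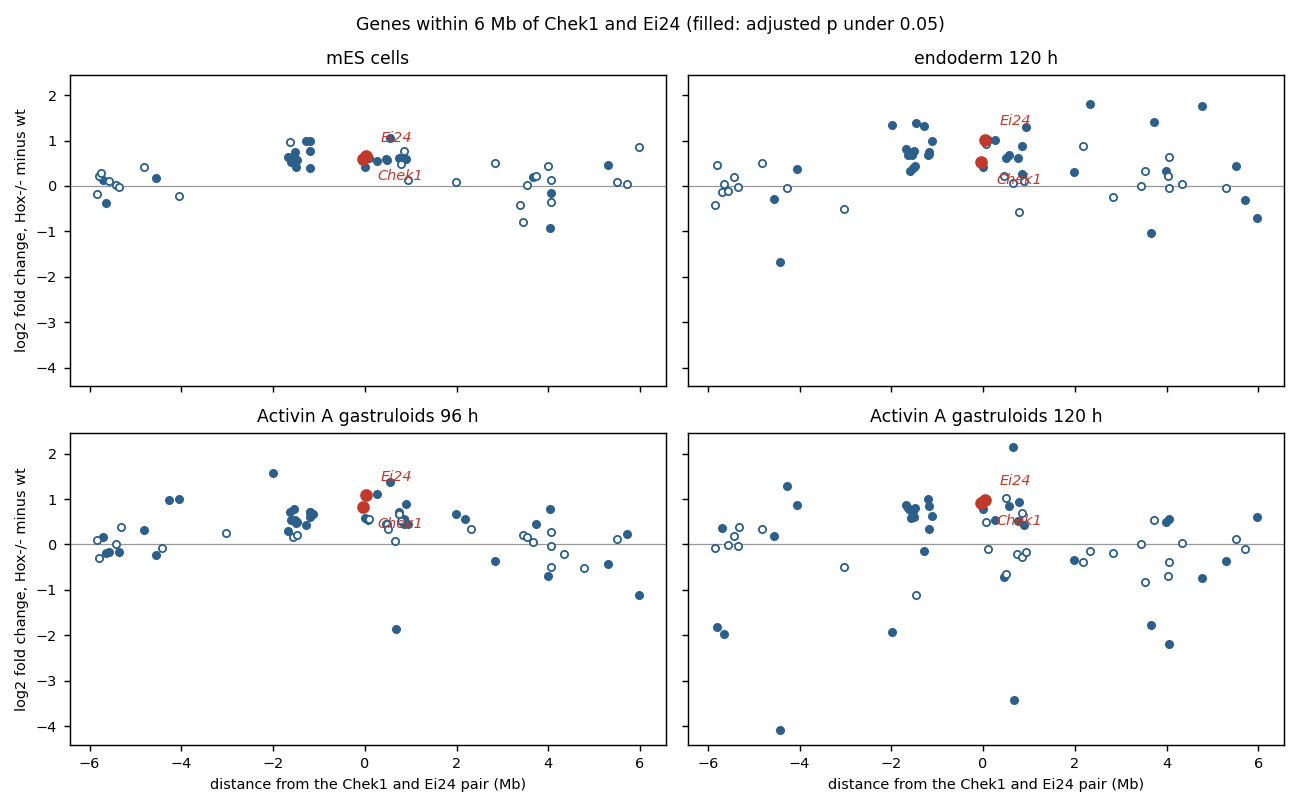
Log2 fold change, Hox-/- minus wild type (y axis), of every gene tested within 6 Mb of the Chek1 and Ei24 pair (x axis, distance in Mb) in 4 cultures; filled points have an adjusted p under 0.05. Genes from 2 Mb before the pair up to it have medians of 0.61, 0.70, 0.58 and 0.74 in mES cells, endoderm cultures and gastruloids at 96 h and 120 h.

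The counting has a limit for Bax. The annotated gene Gm45808 overlaps Bax on the same strand and is absent from the deposited counts. How reads shared with it were counted is unknown. The genes that overlap Cdkn1a and Sesn2 reached at most 0.378 and 0.973 CPM in any library.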

How the data were processed

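Gene counts and FPKM values were deposited for mES cells, endoderm cultures and 2 sets of gastruloids that share 4 wild-type Activin A libraries. The authors' deposited counts are whole-number read counts per gene, and their FPKM values come from Cufflinks 2.2.1, with cutadapt 1.16, STAR and build mm10 also named, per the submitters' processing notes; the role, strand setting and filters of each are not given in the sources used here. The 10 targets and all gene lists were chosen with earlier results of these data known.

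CPM is a gene's count scaled to the library's total. Counts were fitted per table with edgeR 4.0.16 (filterByExpr, TMM scaling, quasi-likelihood test), and with mES and endoderm tables joined for comparisons between them; p-values were Benjamini-Hochberg adjusted over all genes, with calls at 0.05. The trimmed-mean (TMM) scaling means that a fold change can differ from the ratio of CPM. All targets were named; from other lists, Trp53, Mdm4 and Cdkn2a and at most 3 called genes per direction by p. The genes of the chromosome 9 region, and Pou5f1 with the pluripotency markers named beside it, were chosen after values were seen. Alternatives were DESeq2 1.42.0, limma 3.58.1 on log2(FPKM + 1) or log2(FPKM + 0.1), other scalings and filters, a replicate block, and each library left out. On simulated counts with 200 changed genes, the fits recovered most of them. Those changes were all of 2-fold or more, with a common spread for all genes and no interaction tested. The simulation therefore says nothing about smaller changes, which most of the target calls are. Promoter windows came from RefSeq. Totals of at least 9.11 M counts put 3 counts at 0.104 to 0.329 CPM, which covers counting error only. Same-numbered replicates were checked for shared deviations and showed no consistent pairing.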

Additional observations from a re-analysis of the deposited data

Results flagged for a closer look

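Effects of the same contrast differed between cultures, times or treatments for 17 of the target tests. Each was called by edgeR's quasi-likelihood test of the interaction itself, and each of the 10 targets was tested in 3 interactions. Of all genes, 24.1% were called in the genotype by culture interaction, 38.9% in genotype by time and 39.6% in treatment by time. The effect of the Hox-/- genotype was more positive in endoderm cultures than in mES cells for Cdkn1a (log2 difference 1.12), Ccng1 (0.65), Phlda3 (0.64), Pmaip1 (0.61) and Trp53inp1 (0.51). In Activin A gastruloids it was more positive at 120 h than at 96 h for Pmaip1 (0.76), Phlda3 (0.56) and Cdkn1a (0.20, not called with scaling by total counts alone), and more negative for Bbc3 (-0.45), Trp53inp1 (-0.43) and Bax (-0.22). The effect of Activin A against Chiron was more negative at 120 h than at 96 h for Pmaip1 (-1.80), Cdkn1a (-0.98), Trp53inp1 (-0.95), Sesn2 (-0.50), Bax (-0.31) and Mdm2 (-0.27). The gastruloid interactions share the wild-type Activin A libraries. No group holds more than 3 libraries, so none was examined for a single library standing apart.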

How the results depend on the processing

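Of 102 called differences of the targets, 71 were kept under every alternative tried, 31 lost their call under at least 1 and 0 changed sign; 12 differences without a call gained one. Calls lost under 7 or more settings all had a log2 change below 0.2 in size. In mES cells the 6 calls became 2 with DESeq2 and 0 with limma on log2(FPKM + 1), on log2(FPKM + 0.1) and without a filter (6 at an unadjusted p under 0.05 in each), and leaving out a library gave 3 to 6. In endoderm cultures the 5 calls became 3 with unfiltered limma. In Activin A gastruloids at 96 h the 9 calls became 5 with DESeq2, 3 with limma on log2(FPKM + 1) and 2 with limma on log2(FPKM + 0.1) or without a filter; the cause was not tested. A replicate block left 135 of 140 target tests on the same side of the threshold, gained 4 and lost 1. It called 7 of 10 in mES cells and 6 of 10 in endoderm cultures. Same-numbered endoderm libraries correlated by -0.226, 0.206 and 0.00927, so no clear pairing by number was seen. So few libraries cannot exclude a pairing. Over all genes, calls went from 3168 to 954 with DESeq2 in mES cells and from 6546 to 3195 in Activin A gastruloids at 96 h. Scaling by total counts alone moved the median of all genes by over 0.1 in Activin A gastruloids at 120 h (to -0.13) and in wild-type endoderm against mES cells (to 0.18). The lowest target level, that of Pmaip1 at 8.22 CPM, lay above the 0.329 CPM that 3 counts give in the shallowest library. Limma on FPKM was not run for comparisons between mES cells and endoderm cultures, whose FPKM values were made in separate tables.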

Other observations

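Cell-death genes outside the 10 targets moved with time in the gastruloids in both directions. Bak1, the partner of Bax in permeabilising mitochondria, fell from 214 to 68.3 CPM between 96 h and 120 h in wild-type Activin A gastruloids (log2 change -1.72, SE 0.049) and from 241 to 75.4 CPM in Hox-/- ones (-1.69, SE 0.047), and Bid, a BH3 activator, fell by 1.10 and 1.59. The BH3-only genes Bmf (1.26 and 0.45) and Bcl2l11 (0.66 and 0.37) rose over the same interval, each with an adjusted p below the threshold in edgeR's quasi-likelihood test.

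In endoderm cultures, where 5 of the 10 p53 targets were higher in Hox-/-, 12 of 15 genes of the ATF4 and integrated stress response list were lower and 2 higher, against 23.1% of all genes in each direction. Trib3 went from 28.6 to 11.6 CPM (log2 fold change -1.29, SE 0.087), Phgdh, which opens serine synthesis, from 174.9 to 84.4 CPM (-1.04, SE 0.07) and Vldlr from 81.0 to 39.9 CPM (-1.01, SE 0.064). Ddit4, which is induced by both ATF4 and p53, was among the 2 that were higher (0.65, SE 0.095). In mES cells 7 of 13 genes of the list were higher in Hox-/- by edgeR's quasi-likelihood test, against 12.4% of all genes, and the other 6 were not called. The genotype effect in endoderm cultures minus that in mES cells was called negative for 11 of 15, against 12.5% of all genes, and positive for 1, against 11.6%.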
